A study of Mus musculus with 5 samples.

Results

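The tetraspanin family was described in bone marrow-derived macrophages, phagocytes raised in culture from bone marrow with the growth factor M-CSF. Its members were taken by gene symbol, as the numbered Tspan genes together with Cd9, Cd37, Cd53, Cd63, Cd81, Cd82, Cd151, Upk1a, Upk1b, Prph2 and Rom1, which gave 31 of the 20583 gene symbols in the count table. Where a gene had several transcript rows, its row was chosen by the highest mean count over all 5 libraries, so the general level of a member partly follows from that choice. The family itself was put forward after Tspan13 and Tspan15 had been seen among the genes with the smallest p in these libraries, so their differences are a description and support nothing about the family.

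RNA came from C57BL/6 background mice aged 7 to 8 weeks, of the genotype wild type (3 libraries, replicates 1, 2 and 3) or NICcA (2 libraries, replicates 2 and 3), and every culture received 25 ng/ml M-CSF for 7 days. The labels give neither an expansion of NICcA nor the promoter or Cre that drives the allele, and they do not say whether the libraries of a group came from separate mice or were pooled, so any p-value reflects variation among the libraries sequenced, part of which may be technical. The comparison of the genotypes asks which tetraspanin transcripts differ when the NICcA allele is present.

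Tetraspanins are small proteins that cross the membrane 4 times and carry a short and a long extracellular loop. They hold partner proteins such as integrins, immunoglobulin-family receptors and membrane proteases in patches of the membrane, and several of them are sorted onto the small vesicles that cells release. The TspanC8 subgroup (Tspan5, Tspan10, Tspan14, Tspan15, Tspan17 and Tspan33) binds the protease ADAM10, carries it out of the endoplasmic reticulum and influences which substrates it cuts. ADAM10 is also the protease that makes the first activating cut in Notch receptors. In macrophages, Cd9 and Cd81 are known as brakes on cell fusion, and Cd63 is a protein of late endosomes and lysosomes.

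Total counts per library ran from 57442309 to 76562905. The macrophage markers Csf1r and Emr1 stood at 842 to 1146 and 263 to 421 CPM (counts scaled to library size, with TMM factors that align the libraries), so the labelled cell type carried its defining transcripts. Of the 31 tetraspanin genes, 24 passed edgeR's filter on low counts and were tested, and 7 (Tspan1, Tspan6, Tspan11, Tspan12, Upk1a, Upk1b and Prph2) did not. Those 7 had between 0 and 11 reads in any library. Upk1b, a uroplakin of bladder epithelium, had 1 read in NICcA replicate 2 and 0 in the other 4 libraries, where a count of 0 allows up to 0.0409 to 0.0521 CPM (3 reads, counting error only). A member that passes the filter through the group where it is high, such as Tspan15, had to differ, and the 24 genes are therefore not the whole family. Tspan18 also needed its NICcA libraries to pass, with 26, 3 and 6 reads in wild type and 60 and 63 reads in NICcA.

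Levels are compared between genes as RPKM (reads scaled to transcript length and library depth, the authors' values). Cd9 and Cd63 dominated the family. Cd9 stood at 406, 525 and 433 RPKM for wild type replicates 1 to 3, against 338 and 385 RPKM in NICcA replicates 2 and 3. Cd63 followed at 335, 372 and 393 RPKM in wild type and at 259 and 282 RPKM in NICcA. Cd9 lay above Cd63 in each library, and their ranges did not overlap within either genotype. Together they held 70.5%, 74.9% and 72.7% of the summed tetraspanin RPKM in wild type and 63.2% and 68.7% in NICcA. Cd53, a tetraspanin of leukocytes, came next at 59.2 ± 9.07 RPKM (SD, n = 3) in wild type and 67.3 ± 12.7 RPKM (SD, n = 2) in NICcA.

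**Figure D1:**
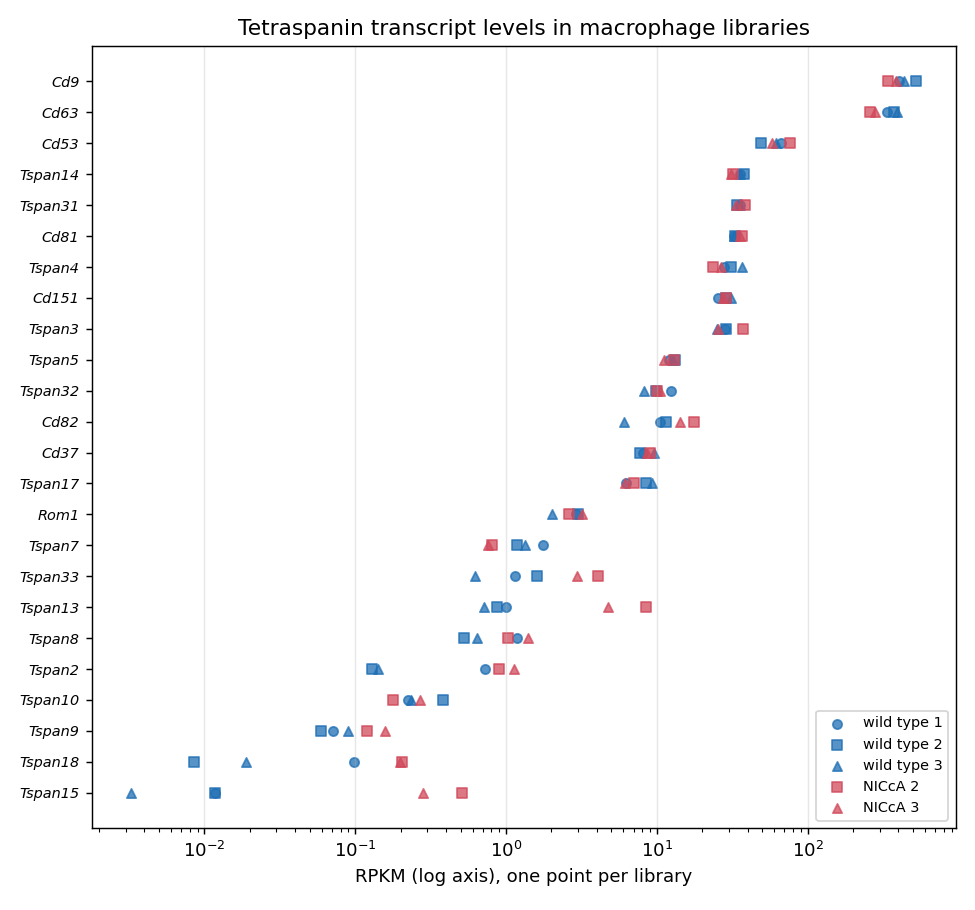
RPKM (log axis) of the 24 tested tetraspanin genes, with 1 point per library, wild type in blue and NICcA in red, ordered by the wild type mean. Most genes span a narrow range over the 5 libraries, while Tspan33, Tspan13, Tspan2, Tspan18 and Tspan15 spread out at the low end, with the NICcA points to the right.

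A second tier of 6 genes stood close together. Tspan14, Tspan31, Cd81, Tspan4, Cd151 and Tspan3 had wild type means of 36.3 ± 1.36, 35.0 ± 0.859, 32.7 ± 0.392, 31.9 ± 4.39, 28.3 ± 2.9 and 27.4 ± 2.04 RPKM (SD, n = 3), and the gaps between Tspan14 and Tspan31, Cd81 and Tspan4, Tspan4 and Cd151, and Cd151 and Tspan3 were smaller than or similar to those spreads. The next tier held Tspan5 (12.7 ± 0.604 RPKM), Tspan32 (10.2 ± 2.05 RPKM), Cd82 (9.33 ± 2.85 RPKM), Cd37 (8.46 ± 1.02 RPKM) and Tspan17 (7.98 ± 1.53 RPKM) in wild type. The last 4 of these were not separated beyond their spread. Over all 5 libraries, 12 members had a mean of at least 10 RPKM, 6 lay between 1 and 10 RPKM and 13 lay below 1 RPKM. Tspan15 moved from place 29 of 31 by wild type mean to place 21 by NICcA mean, Tspan13 from 18 to 15, and Tspan7 from 16 to 20.

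Between the genotypes, 0 of the 24 tested members passed edgeR's quasi-likelihood test at an adjusted p of 0.05, where 0.03% of all 13341 genes tested did. At an unadjusted p below 0.05, edgeR had 4 members at higher values in NICcA (Tspan13, Tspan15, Tspan18 and Tspan33), 16.7% of those tested against a background of 7.68% of all genes, and 5 at lower values (Cd9, Cd63, Tspan4, Tspan7 and Tspan14), 20.8% against 6.83%. DESeq2, the other count test, called Tspan13, Tspan15 and Tspan33 higher, where it called 2.09% of all genes higher, and Cd63 and Tspan7 lower, where it called 1.94% lower. Both NICcA libraries lay above all wild type libraries for 7 members (the 4 named above, Cd82, Tspan2 and Tspan9), 29.2% against 18.3% of all genes, and below them for 5 members, 20.8% against 18.5%. Since Tspan13 and Tspan15 led to the choice of the family, the upward shares are not independent of it. Tspan15 and Tspan18 also passed the filter through NICcA, so the upward shares depend on the filter as well.

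The family as a whole had no common direction. Of the 24 log2 fold changes, 12 were positive and 12 negative, with a median of -0.02 beside 0.00 for all genes. Without the scaling factors the median of all genes lay at 0.11, with 64.5% of all genes positive in place of 50.5%, and the median of the members lay at 0.088, so small differences are read relative to that shift. The median size without sign was 0.44 in the family and 0.21 over all genes, and 5 of the 24 members, beside 7.95% of all genes, differed by 1 or more on the log2 scale. Those 5 were among the less abundant members. They include Tspan13 and Tspan15, which led to the choice of the family, and Tspan15 and Tspan18 passed the filter through NICcA. The count, the median size and the split by level below are therefore not independent of that choice or of the filter. Of the 12 members at a mean of at least 10 RPKM, 8 had negative values and 4 positive, within -0.56 to 0.66. Of the 12 tested members below 10 RPKM, 4 had negative values and 8 positive, within -0.97 to 5.29.

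**Figure D2:**
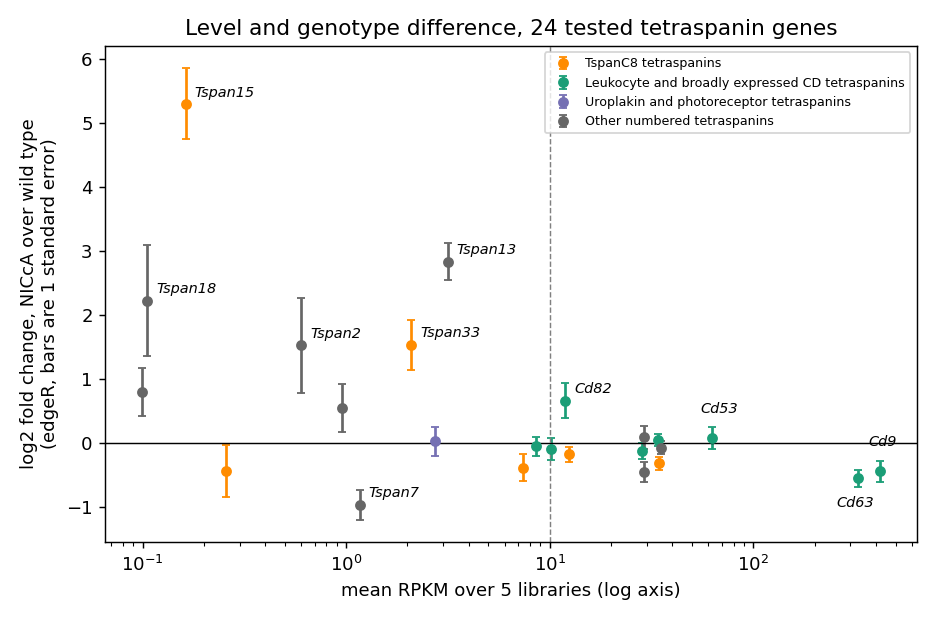
Log2 fold change of NICcA over wild type (edgeR, bars 1 standard error) against the mean RPKM over all 5 libraries (log axis) for the 24 tested tetraspanin genes, coloured by subgroup, with a dashed line at 10 RPKM. The 12 genes to the right of the line lie between -0.56 and 0.66, and the 5 genes at or beyond 1 are all to its left.

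Within the TspanC8 subgroup, Tspan15 and Tspan33 were higher in both NICcA libraries, and the most abundant member, Tspan14, was lower. Tspan15, which directs ADAM10 towards N-cadherin among other substrates, had 3, 4 and 1 reads in wild type replicates 1, 2 and 3 and 144 and 85 reads in NICcA replicates 2 and 3. This is 0.0521, 0.0546 and 0.0152 CPM against 2.15 and 1.18 CPM. The gene was near the limit of detection in all wild type libraries and clearly counted in both NICcA libraries. The ratio of summed reads per scaled library was 40.5, with an exact 95% interval of 20.2 to 95.0 that covers counting error only. The log2 fold change was 5.29 (SE 0.55), and the adjusted p was 0.13 in edgeR and 6.0e-09 in DESeq2. Without each library in turn, edgeR's log2 fold change lay between 4.79 and 5.67. Without 1 wild type library, edgeR's adjusted p was 0.103 to 0.398.

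Tspan33, a TspanC8 member known from red cell precursors and activated B cells, measured 2.78, 4.04 and 1.58 CPM across wild type against 9.42 and 6.76 CPM across NICcA. Both NICcA values exceeded the highest wild type value, and the wild type libraries themselves spread more than 2-fold. Its log2 fold change was 1.53 (SE 0.39, edgeR unadjusted p = 0.0075, adjusted p = 0.28, DESeq2 adjusted p = 0.015). Tspan14 measured 108, 121 and 113 CPM across wild type against 92.8 and 90.0 CPM across NICcA. Its groups did not overlap, and the difference was small beside that of Tspan33 (log2 fold change -0.32, SE 0.10, edgeR unadjusted p = 0.019, adjusted p = 0.31).

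The other TspanC8 genes overlapped between the genotypes. Tspan5 measured 47.0, 53.9 and 52.4 CPM across wild type against 48.6 and 41.6 CPM across NICcA. Tspan17 was at 12.0, 16.9 and 18.4 against 12.9 and 11.2 CPM, and Tspan10 at 0.573, 1.01 and 0.622 against 0.434 and 0.652 CPM. Their log2 fold changes were -0.18 (SE 0.12), -0.39 (SE 0.21) and -0.44 (SE 0.41), with edgeR adjusted p-values of 0.49, 0.41 and 0.62. Without 1 library, Tspan5 ran from -0.30 (without NICcA replicate 2) to -0.07 (without NICcA replicate 3), and Tspan10 from -0.76 (without NICcA replicate 3) to -0.14 (without wild type replicate 2). The overlap of Tspan17 came from wild type replicate 1, without which its log2 fold change was -0.55 (edgeR unadjusted p = 0.0145, adjusted p = 0.17). The 6 genes thus had 2 positive and 4 negative values.

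**Figure D3:**
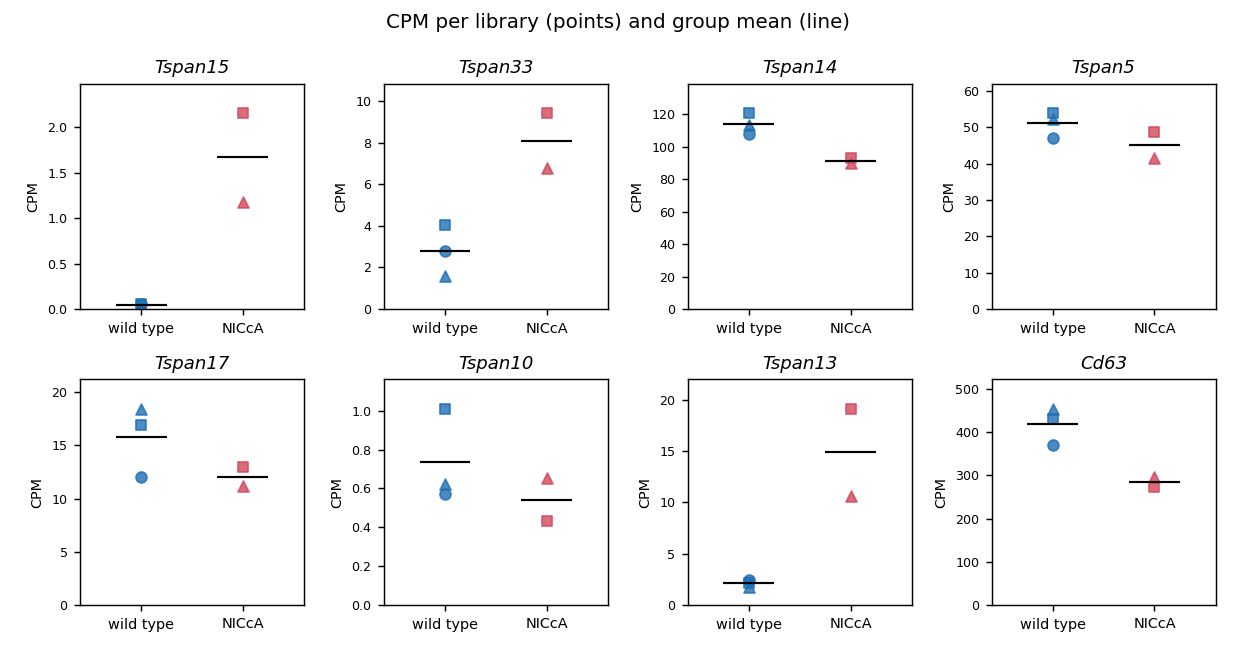
CPM per library for the 6 TspanC8 genes, Tspan13 and Cd63, with points for libraries (wild type blue, NICcA red; circle, square and triangle for replicates 1, 2 and 3) and a line at each group mean. Tspan15, Tspan33 and Tspan13 have both NICcA points above all wild type points, Tspan14 and Cd63 have both below, and Tspan5, Tspan17 and Tspan10 overlap.

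On the RPKM scale, which lacks the TMM factors, the sum of the 6 TspanC8 transcripts overlapped between the genotypes, and its make-up differed. Summed RPKM was 55.0, 61.5 and 58.6 in wild type and 56.8 and 51.9 in NICcA. That overlap belongs to the RPKM scale and does not show equal levels. With the TMM factors, Tspan14, the largest part, was lower in both NICcA libraries than in every wild type library. Tspan14 held 62.2 ± 1.79% of the sum in wild type (SD, n = 3) and 58.0 ± 2.56% in NICcA (SD, n = 2). Tspan33 held 2.09%, 2.60% and 1.07% in wild type and 7.21% and 5.68% in NICcA. Tspan15 held 0.0213%, 0.0191% and 0.00559% against 0.896% and 0.538%. Tspan15 therefore remained a minor part of the TspanC8 transcripts in NICcA. These shares restate the levels given above and were not tested.

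**Figure D4:**
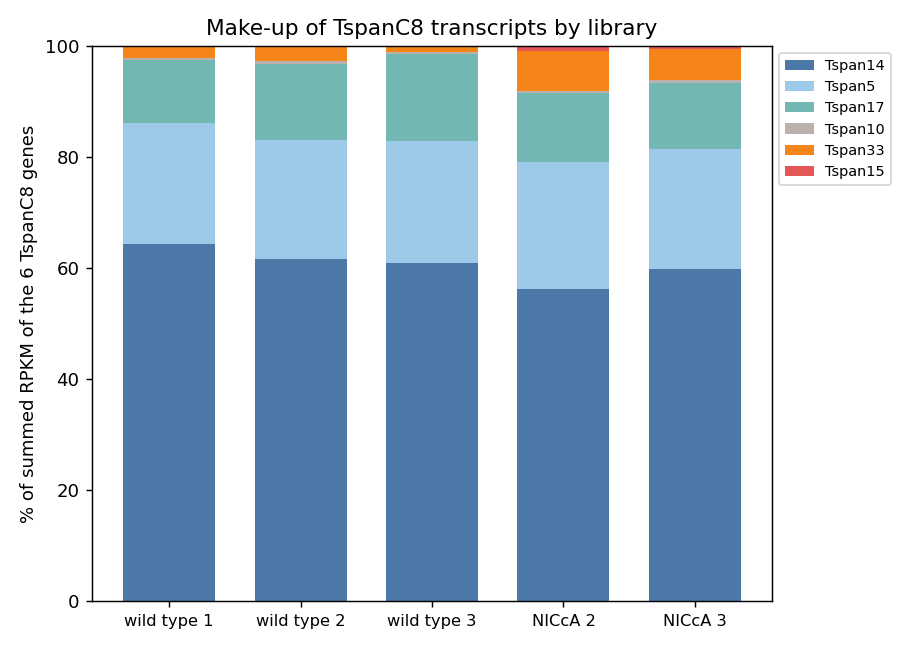
Share of each gene in the summed RPKM of the 6 TspanC8 genes, 1 stacked bar per library. Tspan14, Tspan5 and Tspan17 fill most of each bar, and the Tspan33 and Tspan15 segments together are 1.08% to 2.62% in wild type and 6.22% to 8.11% in NICcA.

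Tspan13, outside the TspanC8 subgroup, was also low in wild type and higher in both NICcA libraries. It measured 2.38, 2.14 and 1.76 CPM across wild type against 19.1 and 10.7 CPM across NICcA, from 137, 157 and 116 reads against 1278 and 769. The wild type libraries lay close together, and both NICcA libraries were far above them, with NICcA replicate 2 the higher. The log2 fold change was 2.83 (SE 0.28, edgeR unadjusted p = 5.4e-05, adjusted p = 0.13, DESeq2 adjusted p = 6.1e-15). Without NICcA replicate 3 the gene passed edgeR's threshold (log2 fold change 3.19, adjusted p = 0.024), and without NICcA replicate 2 it had 2.35 (adjusted p = 0.39). Each of these fits holds 1 NICcA library, which is assumed to vary like the wild type libraries.

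The 250 bases before the annotated start are shown for the 3 genes above with higher values in both NICcA libraries and for Cd63, the abundant member with the largest lower value. Sequences are from RefSeq (GRCm38.p6), read 5′ to 3′ on the gene's strand, and the libraries' own build was another one, so they are matched by symbol. Capitals mark the RBPJ core TGGGAA, the site of the DNA-binding partner of Notch, and the AP-1 site TGANTCA, each searched on both strands, where the RBPJ core can also be read as TTCCCA.
Tspan15, chr10:62231219-62231468, minus strand: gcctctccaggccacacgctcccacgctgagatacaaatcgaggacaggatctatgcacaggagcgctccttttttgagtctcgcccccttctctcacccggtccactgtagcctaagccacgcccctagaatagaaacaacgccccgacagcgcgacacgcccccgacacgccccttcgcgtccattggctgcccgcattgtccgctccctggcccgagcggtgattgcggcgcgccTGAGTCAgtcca
Tspan13, chr12:36042479-36042728, minus strand: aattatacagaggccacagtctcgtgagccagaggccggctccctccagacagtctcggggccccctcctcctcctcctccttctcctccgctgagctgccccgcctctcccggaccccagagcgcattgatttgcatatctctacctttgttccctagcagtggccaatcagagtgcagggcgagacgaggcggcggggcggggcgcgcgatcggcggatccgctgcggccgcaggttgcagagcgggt
Tspan33, chr6:29693964-29694213, plus strand: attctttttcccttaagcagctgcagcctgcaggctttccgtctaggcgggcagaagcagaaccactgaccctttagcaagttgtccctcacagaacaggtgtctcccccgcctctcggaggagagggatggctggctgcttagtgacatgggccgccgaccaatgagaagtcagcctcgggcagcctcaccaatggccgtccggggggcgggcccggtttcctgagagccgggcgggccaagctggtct
Cd63, chr10:128909095-128909344, plus strand: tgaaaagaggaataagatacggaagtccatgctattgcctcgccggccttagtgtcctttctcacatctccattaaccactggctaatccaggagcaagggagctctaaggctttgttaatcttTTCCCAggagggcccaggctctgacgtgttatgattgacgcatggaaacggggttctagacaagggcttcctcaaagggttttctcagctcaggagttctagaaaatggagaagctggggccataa

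Of the 31 members, 29 had at least 1 such window and together they had 39. The RBPJ core letters were in 12 of these windows, from 9 genes, and in 21.6% of all 32536 windows of this length. They were not in the windows printed for Tspan15, Tspan13 and Tspan33, and in the Cd63 window they began 126 bases before the start. These printed genes were chosen, and other members without overlap were mixed. Among those higher in NICcA, Tspan9 had the RBPJ letters in some of its windows, and Cd82 and Tspan2 had them in none. Among those lower, Cd9 and Tspan4 had them, and Tspan14 and Tspan7 did not. The AP-1 letters were in the Tspan15 window, beginning 12 bases before the start, in no other member's window, and in 6.73% of all windows. The windows of Tspan15, Tspan13 and Tspan33 held 63.2%, 66.0% and 62.4% G and C, and that of Cd63 48.8%, beside a median of 52.4% over all windows. A match describes letters only, and binding was not measured here.

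Among the tetraspanins first known as leukocyte or broadly expressed CD antigens, the 2 most abundant were lower in NICcA. Cd9, which restrains macrophage fusion and partners integrins, measured 596, 805 and 663 CPM across wild type against 474 and 537 CPM across NICcA. Cd63, the endosomal tetraspanin, measured 371, 431 and 455 CPM across wild type against 273 and 296 CPM across NICcA. For both genes all wild type values lay above both NICcA values. The log2 fold changes were -0.45 (SE 0.17, edgeR unadjusted p = 0.036, adjusted p = 0.33) for Cd9 and -0.56 (SE 0.13, edgeR unadjusted p = 0.0058, adjusted p = 0.28; DESeq2 adjusted p = 0.0081) for Cd63. In such bulk libraries, fewer cells of a type and less RNA per cell cannot be told apart.

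Cd82, known as a suppressor of metastasis and a partner of integrins, went the other way, at 24.8, 28.3 and 15.0 CPM in wild type and 39.8 and 31.8 CPM in NICcA. Wild type replicate 3 was well below the other 2 wild type libraries, and without it the log2 fold change was 0.43 in place of 0.66 (SE 0.27, edgeR adjusted p = 0.35 with all libraries). Cd81, the partner of Cd9 in fusion control, differed little, at 60.7, 64.8 and 63.6 CPM against 65.5 and 63.6 CPM. Its log2 fold change was 0.04 (SE 0.09), while on the RPKM scale, which lacks the TMM factors, both NICcA libraries (36.7 and 35.8 RPKM) lay above wild type (32.4 to 33.1 RPKM). Cd151, the partner of laminin-binding integrins, had a log2 fold change of -0.13 (SE 0.13), Cd37, a tetraspanin of B cells and myeloid cells, one of -0.06 (SE 0.15) and Tspan32 one of -0.10 (SE 0.17), with overlapping groups. The sign of Tspan32 changed without scaling factors, on the RPKM scale and without wild type replicate 1, and was kept with other kinds of scaling factors.

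In Cd53 and Tspan3 the NICcA libraries lay apart and the genotypes overlapped, though for Cd53 the wild type libraries spread to a similar degree. Cd53 measured 230, 177 and 223 CPM across wild type against 251 and 191 CPM across NICcA replicates 2 and 3. Tspan3 measured 59.9, 64.4 and 55.7 CPM across wild type against 75.3 and 51.8 CPM across NICcA. In both, NICcA replicate 2 was the highest library, NICcA replicate 3 was inside or below the wild type range, and the log2 fold change turned negative without NICcA replicate 2 (-0.14 and -0.22). Over the 24 members, NICcA replicate 2 was above the wild type range for 10 and below it for 6, and NICcA replicate 3 was above it for 8 and below it for 9. NICcA replicate 2 exceeded NICcA replicate 3 for 15 of the 24.

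Of the remaining numbered tetraspanins, Tspan4 and Tspan7 were lower in NICcA. Tspan4, a tetraspanin of migrasomes, the vesicles left behind by migrating cells, measured 45.2, 52.0 and 61.6 CPM across wild type against 36.3 and 40.9 CPM across NICcA (log2 fold change -0.46, SE 0.16, edgeR adjusted p = 0.32). Tspan7, best known from neurons, was at 3.82, 2.69 and 3.07 CPM against 1.69 and 1.57 CPM (log2 fold change -0.97, SE 0.24, edgeR adjusted p = 0.28; DESeq2 adjusted p = 0.023). All 3 wild type libraries exceeded both NICcA libraries for each gene. Tspan31 had a log2 fold change of -0.08 (SE 0.10), whose sign changed without scaling factors.

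Tspan18 and Tspan2 were higher in NICcA, by an amount that depended on wild type replicate 1. Tspan18, a regulator of calcium entry in endothelial cells, measured 0.451, 0.0409 and 0.0911 CPM across wild type, from 26, 3 and 6 reads, against 0.897 and 0.873 CPM across NICcA, from 60 and 63 reads. Tspan2, known from oligodendrocytes, measured 3.82, 0.710 and 0.774 CPM across wild type against 4.50 and 5.59 CPM across NICcA. In both genes wild type replicate 1 lay several times above the other wild type libraries and below NICcA. The log2 fold changes were 2.22 (SE 0.86, edgeR adjusted p = 0.34) for Tspan18 and 1.52 (SE 0.74, edgeR adjusted p = 0.38) for Tspan2, and without wild type replicate 1 they were 3.73 (SE 0.55, adjusted p = 0.10) and 2.77 (SE 0.25, adjusted p = 0.090). In that library the stromal marker list was also highest, at a summed 17.4 CPM against 1.35 to 2.84 CPM in the other 4 libraries, with the collagen gene Col3a1 at 7.27 CPM against 0.0139 to 0.0299 CPM, and its part in these 2 genes was not tested.

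Tspan9, Tspan8 and Rom1 complete the tested members. Tspan9, a tetraspanin of platelets, measured 0.347, 0.300 and 0.455 CPM across wild type against 0.553 and 0.721 CPM across NICcA, without overlap (log2 fold change 0.79, SE 0.37, edgeR adjusted p = 0.37). Tspan8, a tetraspanin of epithelia, overlapped, at 2.20, 1.02 and 1.26 CPM against 1.85 and 2.48 CPM. Of the uroplakin and photoreceptor tetraspanins, Rom1 alone was tested, with a log2 fold change of 0.02 (SE 0.23).

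**Figure D5:**
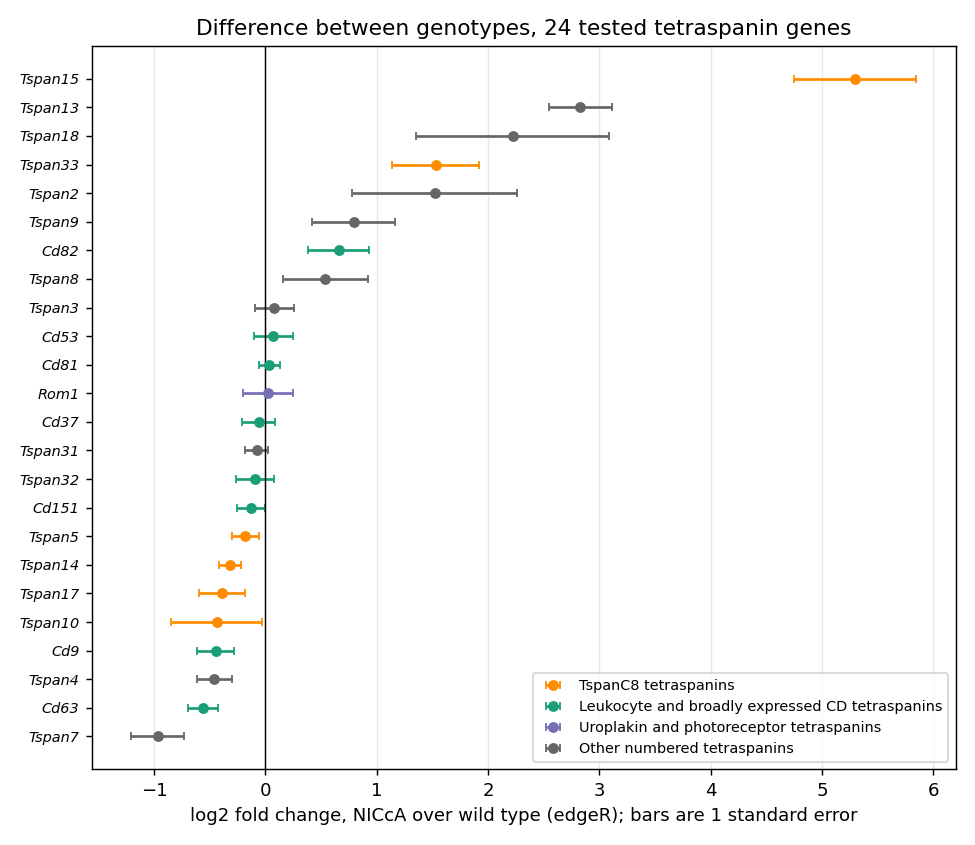
Log2 fold change of NICcA over wild type (edgeR) with bars of 1 standard error for the 24 tested tetraspanin genes, ordered by size and coloured by subgroup. Tspan15, Tspan13, Tspan18, Tspan33 and Tspan2 lie above 1, Tspan7 is the lowest at -0.97, and most of the others lie within 0.6 of 0.

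Position and transcript rows add 2 descriptions. In RefSeq's GRCm38.p6 annotation, 3 pairs of members are direct neighbours among protein-coding genes (Tspan18 and Cd82 on chromosome 2, Tspan11 and Tspan9 on chromosome 6, Tspan32 and Cd81 on chromosome 7), and Cd151 and Tspan4 on chromosome 7 have only Polr2l between them. Tspan18 and Cd82 both had higher values in both NICcA libraries, where 18.3% of all genes tested did. Tspan32 and Cd81 both overlapped, with log2 fold changes of -0.10 and 0.04, and Tspan11, next to Tspan9, was not tested. The neighbours Cd151 and Tspan4 differed in that only Tspan4 had groups without overlap. In 7 members with 2 to 7 transcript rows, the rows' log2 fold changes differed by at most 0.05, and rows of a gene share reads, so isoforms were not resolved.

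Partner genes were counted on lists put together for this family with earlier results known. Of 19 tested genes on the list of ADAM10, ADAM17 and substrates they shed, edgeR called 0, DESeq2 called 0 higher and 1 lower, and 2 were higher and 4 lower at an unadjusted p below 0.05. Over all genes these shares were 2.09% higher and 1.94% lower with DESeq2, and 7.68% higher and 6.83% lower at that unadjusted p. Adam10 measured 106, 83.8 and 97.2 CPM across wild type against 57.8 and 79.4 CPM across NICcA (log2 fold change -0.48, SE 0.17, edgeR adjusted p = 0.33). Adam17, the related sheddase, had 209, 268 and 308 CPM for wild type beside 208 and 179 CPM for NICcA, with a log2 fold change of -0.43 (SE 0.19, edgeR adjusted p = 0.36). The groups did not overlap for either protease, but for Adam17 wild type replicate 1 and NICcA replicate 2 were nearly equal, and 18.5% of all genes lay lower without overlap. Trem2, a lipid receptor that both proteases shed, had -0.78 (SE 0.16), Cd44, the hyaluronan receptor, -0.34 (SE 0.12), and Cx3cl1, a membrane-bound chemokine, 1.06 (SE 0.35). Notch1 and Notch2 had 0.27 (SE 0.11) and 0.10 (SE 0.12). The list's median log2 fold change was -0.08, beside 0.00 for all genes.

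On the list of integrin and immunoglobulin-family partners, edgeR called 1 of 23 tested genes higher and 0 lower, and the median log2 fold change was -0.02. DESeq2 called 1 higher and 0 lower, where it called 2.09% and 1.94% of all genes. At an unadjusted p below 0.05, 5 of the 23 were higher and 4 lower, where 7.68% and 6.83% of all genes were. The called gene was Mpzl2, an adhesion protein already known to differ here, at 0.461 ± 0.119 CPM in wild type (SD, n = 3) and 9.04 ± 2.89 CPM in NICcA (SD, n = 2; edgeR adjusted p = 0.045). Itga3, the laminin-binding integrin chain that pairs with Cd151, averaged 0.269 ± 0.086 CPM across wild type (SD, n = 3) against 0.771 ± 0.0516 CPM across NICcA (SD, n = 2; log2 fold change 1.52, SE 0.40, edgeR adjusted p = 0.28). Ptgfrn, an immunoglobulin protein that binds Cd9 and Cd81 directly, measured 34.8, 42.2 and 48.9 CPM across wild type against 27.3 and 29.4 CPM across NICcA (log2 fold change -0.57, SE 0.16, edgeR adjusted p = 0.29). Vcam1, an integrin ligand, had a log2 fold change of 0.59 (SE 0.19).

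Of 20 exosome and multivesicular body genes, edgeR and DESeq2 called 0, and the median was -0.01. At an edgeR unadjusted p below 0.05, 0 were higher and 2 lower, where 7.68% and 6.83% of all genes were. Sdcbp, the adaptor syntenin that binds the tail of Cd63, measured 709, 708 and 823 CPM across wild type against 583 and 544 CPM across NICcA (log2 fold change -0.41, SE 0.13, edgeR adjusted p = 0.31). Stam, Rab27a and Flot1 had -0.36 (SE 0.14), 0.89 (SE 0.37) and 0.21 (SE 0.11). Of 11 tested macrophage fusion genes, edgeR called Mmp9 higher (adjusted p = 0.0067), a gelatinase already known to differ here, and 0 lower. DESeq2 called 2 higher and 1 lower, where it called 2.09% and 1.94% of all genes. At an edgeR unadjusted p below 0.05, 2 were higher and 4 lower, where 7.68% and 6.83% of all genes were. The median of this list was 0.00. Ocstamp, which is required for fusion, measured 4.51, 2.91 and 1.41 CPM across wild type against 21.5 and 10.2 CPM across NICcA (log2 fold change 2.43, SE 0.52, edgeR adjusted p = 0.27). The osteoclast genes Atp6v0d2 and Ctsk had -0.82 (SE 0.15) and -1.82 (SE 0.54).

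Markers of other cells moved beside some members. Summed CPM of mast cell and basophil markers was 2.91 to 11.6 in wild type and 18.2 to 25.7 in NICcA, led by Cpa3. Epithelial markers, nearly all Epcam, were at 0.288 to 6.65 and 13.3 to 14.8 CPM, neutrophil markers at 54.7 to 104 and 110 to 127 CPM, and erythroid markers at 0.955 to 1.28 and 1.53 to 2.50 CPM. Without overlap between the genotypes, these 4 sums were higher in NICcA. Those of dendritic cells (76.6 to 127 and 126 to 216 CPM), platelets (20.4 to 39.9 and 37.5 to 48.2 CPM), endothelium (25.1 to 46.4 and 32.9 to 57.7 CPM), T and NK cells (4.19 to 6.48 and 5.56 to 6.81 CPM) and B cells (0.469 to 1.23 and 0.658 to 0.804 CPM) overlapped. The sum of macrophage markers, led by Lyz2, was 13750 to 20200 CPM in wild type and 11890 to 12440 CPM in NICcA, lower without overlap. Lyz2 made up most of that sum, and 4 of the 8 markers (Fcgr1, Itgam, Cd14 and Emr1) had positive log2 fold changes, Fcgr1 the largest of them at 0.92 (edgeR adjusted p = 0.29). In these lists 0 genes stood at 0 in all libraries, and edgeR called 0 of them. DESeq2 called 1 gene higher on each of the macrophage, neutrophil, mast cell and basophil, platelet and endothelial lists. It called 0 lower on any list. Over all genes it called 2.09% higher and 1.94% lower. The part of these markers in the values of Tspan13, Tspan15 and Tspan33 was not tested.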

How the data were processed

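The authors' first deposited table holds raw read counts and RPKM per RefSeq transcript (27457 rows), per the file headers; the second holds RPKM alone, and its values for the 47 tetraspanin rows were the same within a relative tolerance of 1e-05. Bowtie 0.12.2 and the build mm8 appear in the submitters' processing notes without a role. How reads were counted, by strand or not, is not given in the sources used here. Counts were fitted over all rows with edgeR 4.0.16 in R 4.3.3 (TMM, filterByExpr, glmQLFit and glmQLFTest, genotype as the term, Benjamini-Hochberg over 18267 rows), and genes are counted by their row with the highest mean count. A standard error is the size of the log2 fold change over the square root of F. The planned rule named each member in full at an unadjusted p below 0.05 or a mean of 10 RPKM, and up to 4 genes per partner list by smallest p, with Adam10, Adam17, Notch1 and Notch2 always. Members and lists were chosen with earlier results of these data known, and members described beyond that rule were picked with their values in view. Alternatives used DESeq2 1.42.0, limma 3.58.1 on counts (voom) or log2(RPKM + 1), other scalings and filters, and fewer libraries. The fits were also run on simulated data, in which every gene had the same spread and the changed genes were not at low levels. That run cannot show how the fits perform for members such as Tspan15 or Tspan18.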

Additional observations from a re-analysis of the deposited data

How the results depend on the processing

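Depth limits the low members: Tspan15 and Tspan18 rest on 8 and 35 wild type reads in all. Where edgeR called 0 tetraspanin genes, it called 2 without a low-count filter (Tspan13 and Tspan15), 1 with legacy = FALSE (Tspan15, a setting added after seeing the data) and 0 to 1 without 1 library (Tspan13, without NICcA replicate 3, where the 1 NICcA library left is assumed to vary like wild type), and DESeq2 called 5. The 9 members at an unadjusted p below 0.05 became 5 with limma on log2(RPKM + 1) or log2(RPKM + 0.1), where 19 members passed the filter, and 5 to 12 without 1 library, the lowest without NICcA replicate 2. The median of -0.02 turned to 0.088 without scaling factors, 0.030 and 0.033 on the RPKM + 1 and RPKM + 0.1 scales and 0.029 with the replicate block, and lay between -0.16 and 0.030 without 1 library. Without scaling factors the median of all genes moved to 0.11. The replicate number entered as a block left 0 members called and 13 at an unadjusted p below 0.05. In the labels, libraries of the same number share only that number. Genes with at least 1 count numbered 15329, 15343 and 18219 in wild type replicates 1, 2 and 3. In NICcA replicates 2 and 3 they numbered 15632 and 17323. Replicate 3 was thus the highest in both genotypes, and the cause was not tested. Deviations of same-number libraries from the group means correlated at 0.20 and 0.17 over rows, with 2 pairs. The deviations of 2 NICcA libraries from their own mean mirror each other, so these values are not independent. The swapped pairs stood at -0.20 (wild type replicate 2 with NICcA replicate 3) and -0.17 (wild type replicate 3 with NICcA replicate 2). They therefore cannot show whether the libraries were paired. Signs turned for members near 0. Tspan31 was at 0.025 without scaling factors, 0.030 and 0.030 on the RPKM + 1 and RPKM + 0.1 scales, and -0.19 to 0.025 without 1 library. Tspan32 was at 0.0060 without scaling factors, 0.029 and 0.033 on the same RPKM scales, 0.048 with the replicate block, and -0.22 to 0.047 without 1 library. Without 1 library Cd53 ran from -0.14 to 0.26 and Tspan3 from -0.22 to 0.33. The cause was not tested. Among members not refitted under every alternative, Rom1 ran from -0.13 to 0.16 and Cd37 from -0.12 to 0.05 without 1 library. Of 284 values of 17 members under the alternatives, 263 kept direction and side of the threshold, 9 passed it and 12 changed sign.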
